A study of Caenorhabditis elegans with 4 samples.

Results

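The outer 25% on each side of chromosome V in early embryos of the nematode Caenorhabditis elegans carried 212 domains of RNA polymerase II that were listed in both replicates. Crosslinked chromatin was precipitated and sequenced (ChIP-seq) from the wild-type laboratory strain N2, kept at 20 °C, from a population of males and hermaphrodites. The antibody, 8WG16, favours polymerase whose C-terminal tail on the largest subunit is not phosphorylated. There are 4 samples: ChIP replicates 1 and 2, and 2 samples of input DNA. Both precipitated samples come from whole wild-type embryos without a treatment or mutant group, so no condition could be compared, and no file of an input sample was used. The embryos were released by bleaching from gravid adults and crosslinked alive. Whether the replicates were separate preparations is not stated in the labels. Positions are in the WormBase WS220 build.

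A member is a replicate 1 peak of chromosome V whose midpoint lies at or below 5231037 or at or above 15693113, the outer 25% on each side of a chromosome of 20924149 bp, and that overlaps a replicate 2 peak by at least 1 bp. The members were thus chosen by measured peak positions and by the presence of a peak in both lists, which are given as a description only. The left arm held 114 members and the right arm 98, out of 3852 shared peaks in the whole genome. The middle of chromosome V, an equal length of 10.5 Mb, held 316. The arms are fixed shares of the length, not boundaries drawn from recombination or chromatin. With 2 libraries of a single group no test across samples can be made. Differences between the arms and other parts of the genome were therefore not tested. Values for shared peaks use the extents of replicate 1, and those of each replicate list alone stand beside them for density, coverage, width and isolation. Sequencing depth is unknown, because the peak lists hold positions but no read counts.

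As background, the autosomes of this worm have a central region dense in conserved and widely expressed genes, flanked by arms with more repeats and more meiotic recombination. In the arms, histone H3 is often methylated at lysine 9, and the chromatin tends to touch the nuclear envelope. Chromosome V is known for large families of chemoreceptor genes, which act mainly in sensory neurons. RNA polymerase II with an unphosphorylated tail is the form recruited to promoters, before phosphorylation accompanies its passage into the gene. Genes under the domains are not named, because the only gene table used here is on another build, WBcel235.

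Polymerase domains were sparser on the arms of V than in its centre. The arms had 20.3 members per Mb, the centre 30.2, a ratio of 0.67, and the shared peaks of the genome averaged 38.4 per Mb. Replicate 1 alone listed 26.0 peaks per Mb on the arms and 32.2 in the centre, and replicate 2 alone 27.7 on the arms and 46.1 in the centre. The direction was the same in both lists, but the size of the gap was not: the ratio of arms to centre was 0.81 in replicate 1 and 0.60 in replicate 2. Members covered 738 kb, or 7.05% of the arms, against 9.75% of the centre. All peaks of replicate 1 covered 8.48% of the arms and 10.2% of the centre, and those of replicate 2 covered 9.17% of the arms and 16.4% of the centre.

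Of the 272 replicate 1 peaks on the arms, 212 (77.9%, exact 95% binomial interval 72.5 to 82.7%) had a replicate 2 counterpart, and of the 337 in the centre 316 did (93.8%, 90.6 to 96.1%). The share over all replicate 1 peaks was 88.7%. This overlap defined the members, so nothing is read from it. Seen from replicate 2 the order of the shares was the other way round, with 199 of 290 arm peaks (68.6%, 62.9 to 73.9%) and 277 of 482 centre peaks (57.5%, 52.9 to 61.9%) meeting a replicate 1 peak, where the share over all replicate 2 peaks was 61.4%. These intervals cover counting error only, and neighbouring peaks are not independent.

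The left arm was somewhat richer in members than the right arm under these boundaries, with 21.8 members per Mb on the left and 18.7 on the right, a ratio of 1.16. The ratio was 1.16 in each replicate list alone. It rested on where the arms were taken to end. With arms of 20% of the length it was 0.94, and in the series-wide peak list, which the authors deposited beside the replicate lists, it was 0.95. In bases, members covered 7.80% of the left arm and 6.31% of the right arm. All peaks of replicate 1 covered 9.24% of the left arm and 7.71% of the right arm. Those of replicate 2 covered 9.66% of the left arm and 8.69% of the right arm.

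Along each arm the members were uneven. On the left arm, the 500 kb next to the chromosome end held 23 members and the next 500 kb held 6. The next bins inwards held 12, 7, 2, 12, 4, 10, 18 and 18 members, and the last piece, from 5000 kb to the boundary, held 2. Counts thus rose and fell along the left arm, with the highest at the end and from 4000 to 5000 kb. Replicate 1 alone listed 30 peaks at the end and 21 from 4500 to 5000 kb, replicate 2 alone 26 and 30. With members at most 10 kb apart counted as 1 group, the end held 8 groups and the bin from 4000 to 4500 kb held 10. The densest bin of the left arm by bases was the one from 4500 to 5000 kb, of which members covered 17.8%. In the bin from 3000 to 3500 kb they covered 2.52% and in the last piece 2.19%.

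On the right arm, the highest counts were 17 members from 2500 to 3000 kb from the end, 16 from 500 to 1000 kb and 15 from 1500 to 2000 kb. This order depended on the list. From 2500 to 3000 kb replicate 1 alone listed 23 peaks and replicate 2 alone 16, and from 1500 to 2000 kb each listed 21. Counted as groups, the bin from 2500 to 3000 kb held 5 and the bin from 500 to 1000 kb held 9. The bins from 3000 to 3500 kb and from 3500 to 4000 kb held 5 and 4, and members covered 1.67% and 1.39% of them. The innermost piece of the right arm, from 5000 kb to the boundary, held no member. The outer 50% of the left arm held 52 of its 114 members (45.6%), and the outer 50% of the right arm 57 of its 98 (58.2%).

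**Figure D1:**
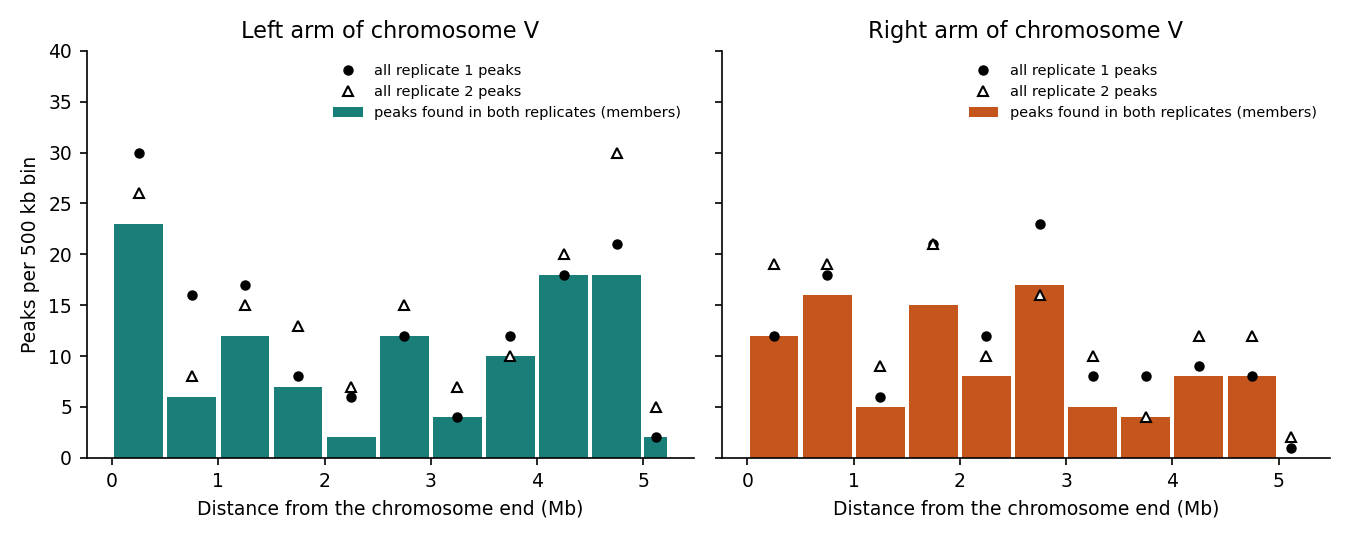
Peaks per 500 kb bin (y axis) against distance from the chromosome end in Mb (x axis) for the left and right arms of chromosome V. Bars are members, filled circles all replicate 1 peaks and open triangles all replicate 2 peaks, and the last bin of each arm is shorter. The left arm has its tallest bar at the end, 23 members, and the right arm its tallest from 2500 to 3000 kb, 17 members.

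Members fell into islands and singles. Members of an arm at most 10 kb apart, edge to edge, were joined into an island. The arms then held 44 islands and 65 single members, 109 units in all. The left arm had 24 islands and 37 singles, and the right arm 20 islands and 28 singles. Islands took up 147 of the 212 members (69.3%). The same rule put 80% of all shared peaks and 75.3% of those in the centre of V into islands. The outer parts of the other chromosomes were cut at the same share of length. There the island share was 69.5% on X, 74.1% on IV, 84.5% on II, 85.5% on III and 85.6% on I. The share on the arms of V was thus close to that on X. By arm, 77 of 114 left members (67.5%, exact 95% interval 58.1 to 76.0%) and 70 of 98 right members (71.4%, 61.4 to 80.1%) were in islands.

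Most islands had 4 members or fewer. Of the 44, 14 had 2 members, 13 had 3, 11 had 4, 3 had 5 and 3 had 6 or more. In the centre of V, 49 of 88 islands had 2 members and 1 had 6 or more. Over all shared peaks, 386 of 905 islands had 2 members and 103 had 6 or more. Their span ran from 3487 to 58750 bp with a median of 13860.5 bp, and the peaks filled a median of 69.3% of the span. The median span was 12491.5 bp on the left and 16533.5 bp on the right.

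**Figure D2:**
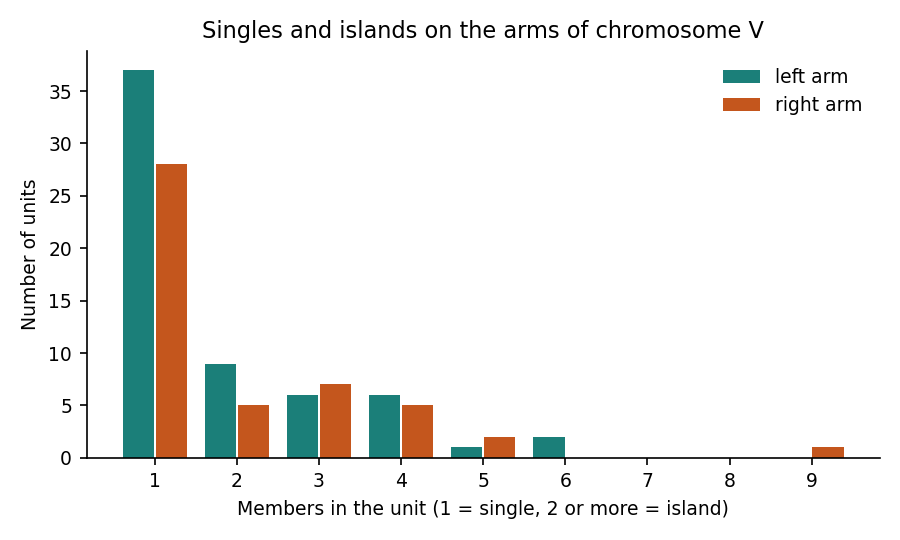
Number of units (y axis) by the number of members in the unit (x axis) on the left arm and the right arm, where 1 is a single member and 2 or more an island. Singles are the commonest unit on both arms, 37 on the left and 28 on the right, and the biggest island, of 9 members, lies on the right arm.

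The biggest island lay on the right arm from 18021380 to 18080129, with 9 members over 58750 bp, 2844 kb from the chromosome end. Its members were 1338 to 16740 bp wide, and 72.0% of its length was under a peak. Replicate 2 drew the same stretch as 5 peaks. A single replicate 2 peak of 19726 bp spanned the first 4 members, which replicate 1 gave as 1673, 2632, 7339 and 5327 bp with gaps of 402, 49 and 336 bp between them. Another replicate 2 peak, of 6918 bp, spanned the next pair. The last member, 16740 bp in replicate 1, was 16718 bp in replicate 2. The extent of the island was thus alike in both lists, and its division into peaks was not.

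The next islands of the right arm had 5 members each. One ran from 19223056 to 19257092, with members of 1346 to 5945 bp that met 6 replicate 2 peaks. The other ran from 18597415 to 18614072 and met 3 replicate 2 peaks, and 75.2% of its length was under a peak.

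On the left arm, 2 islands had 6 members. The one from 151229 to 187842 was open, with gaps of 940 to 6378 bp and 41.1% of its 36614 bp under peaks, and its members met 8 replicate 2 peaks. The one from 2694172 to 2708108 was compact, with 6 narrow members of 1082 to 1850 bp in 13937 bp, 3 of which lay under 1 replicate 2 peak of 3816 bp. The third island, from 298245 to 312028, had 5 members and met 4 replicate 2 peaks.

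Part of this grouping came from peaks that one list split and the other did not. Of the 210 gaps between neighbouring members of an arm, 38 were under 500 bp, and 26 of these 38 lay under a single replicate 2 peak. Of the 24 gaps from 500 bp to under 2 kb, 3 were bridged in this way, and none of the 148 wider ones was. In all 29 gaps were bridged, with a median of 120 bp and a maximum of 1903 bp, so that joining them left 183 separate regions from 212 members. Among the wider gaps, 51 were from 10 to under 50 kb and 56 were 50 kb or longer.

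The nearest other shared peak lay at a median of 2570.5 bp from a member, against 1953 bp in the centre of V and 1598 bp over all shared peaks. It was under 1 kb away for 83 members (39.2%), where the share over all shared peaks was 40.9%. The median distance was 1948.5 bp on the left arm and 4371 bp on the right arm. This order was not stable between the lists: replicate 1 alone gave 1022.5 bp on the left and 2486 bp on the right, and replicate 2 alone 1899 bp on the left and 1343 bp on the right. Arms and centre also changed order, with 1850 bp on the arms and 1999 bp in the centre in replicate 1 alone, and 1788 bp on the arms and 1258.5 bp in the centre in replicate 2 alone. With 50% mutual overlap as the rule for sharing, the median was 8371 bp on the arms. The order of these medians between the parts thus varied with the list.

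Isolated domains made up a larger share of the arms than of the centre. For 24 of the 212 members (11.3%, exact 95% interval 7.39 to 16.4%) the nearest other shared peak was more than 50 kb away. In the centre of V this was so for 8 of 316 (2.53%, 1.10 to 4.93%), and over all shared peaks for 2.86%. On the left arm 13 of 114 members were isolated (11.4%) and on the right arm 11 of 98 (11.2%). In replicate 1 alone the shares were 6.85% on the left and 7.14% on the right, and in replicate 2 alone 10.9% on the left and 8.21% on the right. Each replicate alone gave the same direction, with 6.99% of arm peaks and 2.08% of centre peaks in replicate 1, and 9.66% of arm peaks and 0.83% of centre peaks in replicate 2. Where each peak had to cover at least 50% of the other to count as shared, the shares were 17.5% on the arms and 9.77% in the centre. The difference was not tested, and the density of the arms was also the lower one, as given above; its part in the result was not tested. On the outer 25% of each side of the other 5 chromosomes the share ran from 0.58% on III to 7.32% on X, with 1.63% on I, 0.89% on II and 3.96% on IV.

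**Figure D3:**
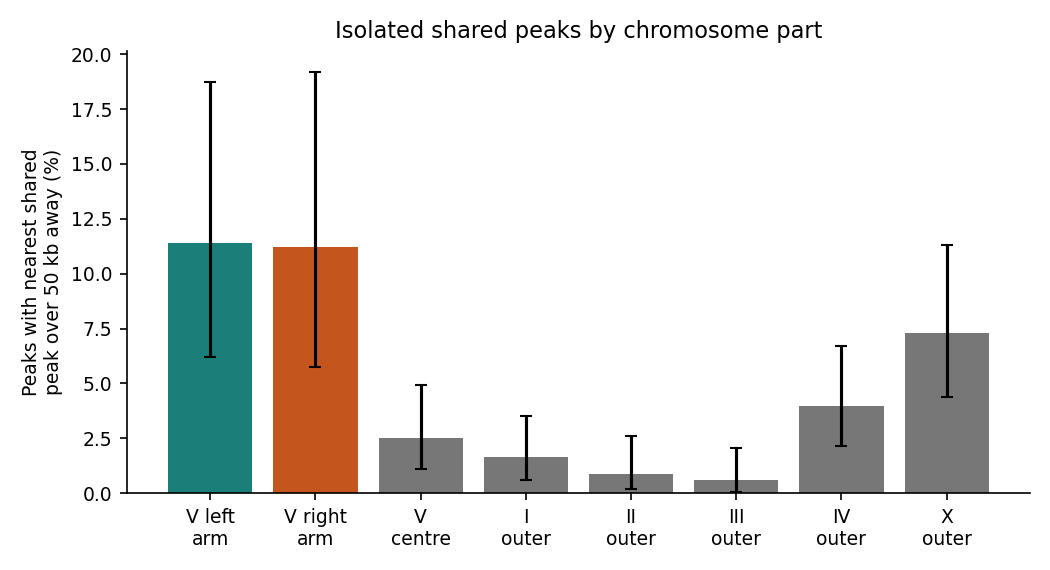
Percent of shared peaks whose nearest other shared peak is over 50 kb away (y axis), for the left and right arms of V, the centre of V and the outer 25% on each side of the other 5 chromosomes (x axis). Error bars are exact 95% binomial intervals, which cover counting error only. Both arms of V stand at about the same height, 11.4% and 11.2%, and the centre of V at 2.53%.

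The most isolated member, by distance to the nearest shared peak, was also one of the widest. It lay on the left arm from 2126326 to 2140121 (13796 bp), with 249582 bp to its neighbour on one side and 280990 bp on the other. Replicate 2 drew it from 2126324 to 2140523 (14200 bp), so its left edge differed by 2 bp between the lists. On the left arm the next most isolated was the member from 2421112 to 2424922, 3811 bp in replicate 1 and 2956 bp in replicate 2, with its nearest neighbour 104479 bp away. The third was the outermost member of the left arm, from 5586 to 8725 in replicate 1 with a replicate 2 peak from 5526 to 9314, followed by 93349 bp without a shared peak.

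The most isolated members of the right arm were narrow by replicate 1 extents. The first ran from 18318290 to 18319345, 1056 bp in replicate 1 and 2770 bp in replicate 2, with 206628 bp on one side and 278069 bp on the other. The second ran from 17348556 to 17350249 (1694 bp in replicate 1, 2548 bp in replicate 2), 166532 bp from its neighbour. The third ran from 16224921 to 16226368 (1448 bp in replicate 1, 1258 bp in replicate 2), 126185 bp from its neighbour. In replicate 2 the first and second were wider than 2258 bp, the median of all its right arm peaks.

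Over all isolated members the width was 1039 to 18530 bp in replicate 1. The median was 3840 bp for the 13 on the left arm and 2257 bp for the 11 on the right arm, and in replicate 2 it was 3789 bp on the left and 2598 bp on the right. The isolated domains of the left arm thus had the wider median in both lists, although single values overlapped. Each of the 24 met exactly 1 replicate 2 peak. Isolation from shared peaks did not always mean isolation from any peak. Of the 24, 11 had no other peak of either replicate list within 50 kb, and 13 had one. Among the 13 were the first and second most isolated members of the left arm and the second of the right arm. The left domain of 18530 bp was also among them.

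Long stretches without a shared peak filled 59.4% of the arms and 33.9% of the centre, counting stretches over 100 kb. The left arm had 12 of them, 49.9% of its length, and the right arm 20, 68.8% of its length. Most were not wholly empty, since only 6 of the 32 held no peak of either replicate list apart from the edges of the peaks that flank them. In the centre 4 of 23 such stretches held none, so this is no trait of the arms alone. The shares of length are given for shared peaks only, not for either replicate list alone.

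The longest on the left arm ran from 2708109 to 3190123 (482015 bp) and held no replicate 1 peak, 2 replicate 2 peaks and 6 short peaks of the series-wide list. It began where the compact island of 6 members ended. The second, from 364613 to 722602 (357990 bp), held 1 replicate 2 peak and no other listed peak. The third, from 2140122 to 2421111 (280990 bp), held 2 peaks of each replicate that did not overlap, and it separated the first and the second most isolated member of the left arm.

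On the right arm the longest stretch ran from 15579083 to 16022631 (443549 bp) across the boundary, with 2 replicate 1 peaks and 5 replicate 2 peaks inside it. The second, from 18319346 to 18597414 (278069 bp), held 2 replicate 2 peaks. The third, from 17074831 to 17348555 (273725 bp), held 2 replicate 1 peaks that together took 18.3 kb. One of these, of 16669 bp, was the widest replicate 1 peak of the right arm without a counterpart. The widest replicate 2 peak of the arms without a counterpart lay farther out on the right, from 20665949 to 20679443 (13495 bp).

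The members were domains of a few kilobases. Their median width in replicate 1 was 2304.5 bp (interquartile range 1526.75 to 3919 bp), against 2324 bp in the centre of V and 2291.5 bp over all shared peaks. The left arm had a median of 2311.5 bp and the right arm 2304.5 bp. The replicate 1 list alone gave 2188 bp on the left and 2209.5 bp on the right, and the replicate 2 list alone 1915 and 2258 bp. The replicate 2 peaks that the members overlapped summed to a median of 3192 bp a member on the arms, against 4691.5 bp in the centre and 3994.5 bp over all shared peaks. In these sums a replicate 2 peak counts again for every replicate 1 peak that it meets. Counted once each, replicate 2 peaks that met a replicate 1 peak had medians of 2598 bp on the arms and 3613 bp in the centre. The arms and the centre thus had close medians by replicate 1 extents and the arms the lower one by replicate 2 extents. Of all replicate 2 peaks, those on the arms had a median width of 2107 bp and those in the centre 2244 bp. By class, 83 members were under 2 kb, 90 were from 2 kb to under 5 kb, 29 were from 5 to 10 kb and 10 were wider than 10 kb. Members under 2 kb made up 39.2% of the arms, where the share over all shared peaks was 42.8%.

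The widest domains held a large part of the covered bases. The 10 members over 10 kb (4.72%, exact 95% interval 2.28 to 8.50%, where the share over all shared peaks was 3.71% and in the centre of V 1.58%) held 19.8% of the bases under members, where such peaks held 14.9% of the bases under all shared peaks. The arms and the centre were closer in replicate 2, where 17 of 290 arm peaks (5.86%) and 26 of 482 centre peaks (5.39%) were over 10 kb, while replicate 1 had 11 of 272 (4.04%) on the arms and 5 of 337 (1.48%) in the centre. Of the members over 10 kb, 7 were on the left arm and 3 on the right arm. The replicate 1 list alone had 7 such peaks on the left and 4 on the right. The replicate 2 list alone had 10 on the left (6.41%) and 7 on the right (5.22%), and the difference was not tested. Each of the 10 members held more than 10 kb in both replicates, and replicate 2 listed between 96.5% and 100% of its bases.

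The widest of the left arm ran from 4491009 to 4511387, 20379 bp in replicate 1 and 23784 bp in replicate 2. A gap of 3470 bp separated it from another wide member of 12881 bp, so that these neighbours formed an island of 2 wide domains. The second ran from 1568418 to 1586947, 18530 bp in replicate 1 and 20460 bp in replicate 2, and stood 89241 bp from its neighbour. The third was the most isolated member, given above. On the left arm 5 of the 7 wide members were singles, where 37 of all 114 left members were.

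The 3 wide members of the right arm all lay inside islands, where 71.4% of all right members did. With so few wide members, nothing is read from these counts. The widest ran from 20394670 to 20413026, 18357 bp in replicate 1 and 19484 bp in replicate 2, in an island of 4. The second was the last member of the island of 9. The third, from 16797671 to 16809000, was 11330 bp in replicate 1, while replicate 2 gave 3 peaks there that summed to 11417 bp.

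The order of singles and island members by median width differed between the arms, but not in both lists. Singles of the left arm had a median width of 3569 bp and its island members 1978 bp, while singles of the right arm had 2061 bp and its island members 2540.5 bp. The replicate 1 list alone gave 3648.5 bp for singles and 1977 bp for island peaks on the left, and 1772 and 2217 bp for the same classes on the right. In the replicate 2 list alone left singles were no longer the wider class, with 1858 bp for singles and 1929 bp for island peaks. There the right arm had 2156.5 bp for singles and 2271.5 bp for island peaks. The wider left singles were thus not seen in the replicate 2 list alone, which also holds other peaks. Its left arm had 39 singles and 117 island peaks, against 37 and 77 among the members. Whether the extents or the set of peaks made this difference was not tested. Both classes were compared after their values had been seen.

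**Figure D4:**
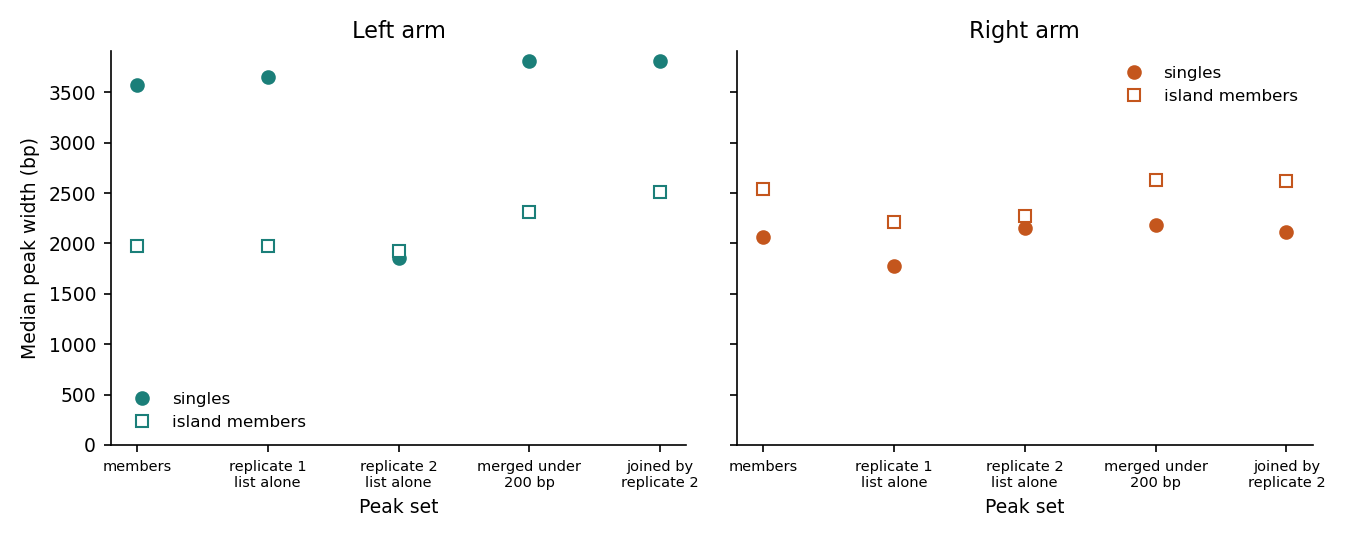
Median peak width in bp (y axis) of singles (filled circles) and island members (open squares) on the left and right arms, for the members, each replicate list alone, and 2 ways of joining neighbours (x axis). On the left arm singles are the wider class in every set but the replicate 2 list alone, where the medians are 1858 bp for singles and 1929 bp for island peaks.

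The edges of a domain were placed close together in the replicates where one peak met one peak. This held for 152 of the 212 members (71.7%), where the share over all shared peaks was 65.4%. Over these 152 the median width was 2220.5 bp in replicate 1 and 2468.5 bp in replicate 2, and the replicate 2 peak was the wider for 91. The starts differed by a median of 188.5 bp and the ends by 220 bp. The widths in the lists went together across these members, with Spearman's rho of 0.81 (n = 152 regions). The points share the libraries and the kind of peak caller, and they are regions and not samples.

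Among the other 60 members, 51 shared a replicate 2 peak with another replicate 1 peak (24.1%, where the share over all shared peaks was 31.6%) and 15 met 2 or more replicate 2 peaks (7.08%, against 6.07% over all shared peaks), with 6 members in both groups. The members with the largest ratio of widths between the lists were all of the first kind. The counting favours this kind, because a shared replicate 2 peak enters in full for each member under it. The most extreme, the first member of the island of 9, had 1673 bp in replicate 1 under a replicate 2 peak 11.8 times as wide. The next were on the left arm, from 1866326 to 1867343 (1018 bp, under a replicate 2 peak of 10526 bp) and from 1232743 to 1234619 (1877 bp, under one of 15911 bp). Replicate 2 listed 92.4% of the bases under members, against 94.3% under all shared peaks and 96.9% under those in the centre of V. It covered 204 of the 212 members (96.2%) to at least 50%, where the share over all shared peaks was 97.9%, and 316 of 316 in the centre.

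**Figure D5:**
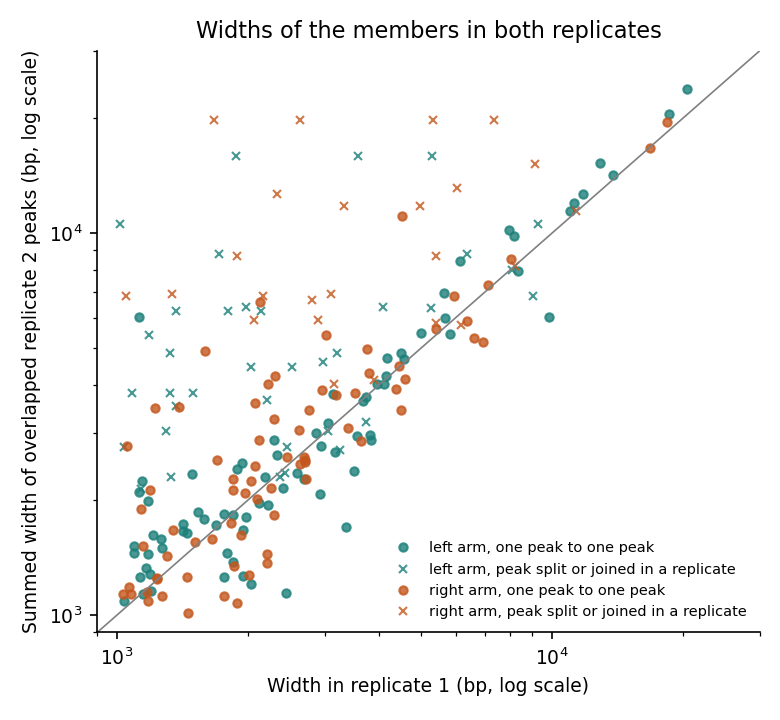
Width of each of the 212 members in replicate 1 (x axis, bp, log scale) against the summed width of the replicate 2 peaks it overlaps (y axis, bp, log scale), by arm. Circles are members where one peak meets one peak, crosses the others, and the grey line marks equal widths. Most circles lie near the line, with exceptions up to a ratio of 5.36. Crosses lie mostly above it, up to a ratio of 11.8, where a replicate 2 peak counts in full for each member that it meets.

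At the boundary that cut the arms, members and excluded peaks stood far apart. The innermost member of the left arm ran from 5113505 to 5114597 (1093 bp, its midpoint 116986 bp inside the boundary), and the first shared peak outside ran from 5268937 to 5276571 (7635 bp, 41717 bp outside). On the right arm the innermost member ran from 16022632 to 16028795 (6164 bp, 332600 bp inside), and the nearest shared peak outside ran from 15575534 to 15579082 (3549 bp, 115805 bp outside). The outermost member of the right arm ran from 20849650 to 20851034 in replicate 1, with a replicate 2 peak from 20848911 to 20852412, as the last peak of an island of 4.

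The series-wide list resolved members into shorter peaks. All 212 members touched it, where 99.9% of all shared peaks did, and 497 of its peaks touched a member. That list carries the title of the series, which holds no other precipitated samples, so it is not independent of the replicates. A member met a median of 2 series-wide peaks and at most 8, and 134 members (63.2%, where the share over all shared peaks was 62.4%) met 2 or more. Members under 2 kb met a median of 1, those from 5 to 10 kb a median of 4 and those over 10 kb a median of 3. Over all shared peaks the medians for the same classes were 1, 4 and 5. Spearman's rho of width with the number of series-wide peaks was 0.55 over the 212 members, a description across regions of the same libraries. The isolated left domain of 18530 bp met 2 series-wide peaks, which covered 97.9% of it, while the 20379 bp domain met 8, which covered 93.6%.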

How the data were processed

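The values are the first and last base (1-based) of peaks in 3 lists: 1 for each precipitated sample, called per sample (MACS), and a series-wide list (MACS v2), as the caller column of the deposited files names them. The build is WormBase WS220 per the file headers. Alignment was with BWA to ce10, per the submitters' processing notes. Caller thresholds, the control and the treatment of multi-mapping reads are not stated. The deposited scores were not used.

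The tools were scipy 1.17.1, pandas 2.3.3, numpy 2.4.6 and matplotlib 3.10.9 under Python 3.11.15. Midpoints placed peaks in the outer 25% of each side or the centre. For chromosomes other than V, the last listed peak end stood for the length. Shares carry 95% Clopper-Pearson intervals, which cover only counting error. Overlap, gap and island functions were tested on simulated lists. No test between conditions was possible with a single group of 2 replicates.

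The members, arms, classes and rules were chosen with earlier results of these data known. In each arm the text names the 3 widest members, the 3 most isolated, the 3 islands with most members, the outermost and innermost member, the shared peak outside the boundary and the 3 longest stretches without a shared peak, and over both arms the 3 with the largest width ratio; peaks of 1 replicate alone and the comparison of singles with islands were chosen after their values were seen. Alternatives changed the overlap, the list that defines members, merging, arm boundary, island gap and extent.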

Additional observations from a re-analysis of the deposited data

Results flagged for a closer look

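On the chromosome V arms 261 of 1105 series-wide peaks met neither replicate list (23.6%, exact 95% binomial interval 21.1 to 26.2%), against 133 of 1342 in the centre of V (9.91%) and 16.4% over all nuclear peaks of that list. They stood out as listed signal outside the members. Their number was 113 on the left arm and 148 on the right arm, and their median width was 221 bp, against 710 bp for arm peaks met by both lists. Unmet peaks were as short elsewhere, with medians of 210 bp in the centre and 224 bp over all. Peaks met by both lists had 696 bp in the centre and 614 bp over all. The widest unmet peak of the arms ran from 17309287 to 17311479 (2193 bp) on the right arm. The difference between arms and centre was not tested.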

How the results depend on the processing

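The ratio of arm to centre density stayed below 1 under each of 9 alternatives (0.602 to 0.823), and that of the isolated share stayed above 1 under each of 8 (1.79 to 11.6). The ratio of left to right density turned to 0.943 with arms of 20% and to 0.945 in the series-wide list, and the left to right ratio of median widths, 1.00 as reported, lay on either side of 1. The cause was not tested. With 50% mutual overlap the density ratio of left to right was 1.25, the median width 2660 bp, the median distance to the nearest shared peak 8371 bp (2570.5 bp as reported), the island share 55%, the covered share 5.83% and the counterpart share 58.8%. Taken from replicate 2 peaks that met replicate 1, these were 1.12, 2598 bp, 2893 bp, 65.8%, 7.64% and 68.6%, with a width ratio of 0.85. With peaks under 200 bp apart merged, the density ratio was 1.11, the width 2704.5 bp, the width ratio 1.21, the distance 5566 bp and the island share 62.2%. Joining neighbours under 1 replicate 2 peak, chosen after seeing the data, gave 1.13, 2700 bp, 1.36, 5483 bp and 61.7%. Arms of 20% gave a width ratio of 0.94 and a distance of 2173 bp. Arms of 30% gave a density ratio of 1.21, a width ratio of 0.90, a distance of 2705 bp and an island share of 71.5%. The series-wide list gave a width of 352 bp, a width ratio of 0.96, a distance of 213 bp, an island share of 96.4% and a covered share of 8.00%. Islands linked at 5 kb and 20 kb held 57.1% and 78.8% of members. With any peak of either list as neighbour the distance was 1445.5 bp. The width was 2125.5 bp over bases listed in both replicates and 3626 bp over the union. Leaving out a replicate gave ranges of 1.159 to 1.164 for the density ratio of left to right, 0.602 to 0.807 for arm to centre, 2107 to 2200 bp for width, 0.848 to 0.990 for the width ratio, 1788 to 1850 bp for distance, 74.8 to 77.2% in islands, 8.48 to 9.17% covered and 3.36 to 11.6 for the isolated share ratio. The ratio of median distances from left to right (0.446 as reported) was 1.32 with 50% mutual overlap, 1.07 with arms of 30% and 0.411 to 1.41 when a replicate was left out, and that from arms to centre (1.32 as reported) was 0.670 with replicate 2 peaks, 0.969 with joined neighbours and 0.925 to 1.42 when a replicate was left out. Leaving out a replicate moved the ratio of single to island widths from 1.80 to between 0.963 and 1.85 on the left, and from 0.811 to between 0.799 and 0.949 on the right. Of 105 alternative values, 43 moved by less than the SD of the 2 replicate lists or, for the counterpart share, stayed within its binomial interval. Of the others, 47 moved farther and 15, all of them ratios, fell on the other side of 1. An SD of 2 values is a loose measure. For the isolated share ratio it was 5.85, above the reported value of 4.47, so a move below it says little about stability. No paired analysis was possible because the results come from no test and no file of an input sample was used. Depth is unknown, so what it limits cannot be given.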

Other observations

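The series-wide list reached both ends of chromosome V, where neither replicate list had a peak. Its first peak ran from 1 to 292 and its last from 20923863 to 20924186, which is 37 bp past the chromosome length of 20924149 bp that set the arms. The outermost members lay 5586 bp from the left end and, at their outer edge in replicate 2, at 20852412 on the right.

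In the outermost 500 kb, the left end held 23 members and 102 series-wide peaks, and the right end held 12 members and 87 series-wide peaks. In the second 500 kb the left arm had 6 members among 16 replicate 1 peaks, and the right arm 16 members among 18. These bins were picked after their values were seen, and no difference was tested.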
